A study of Mus musculus with 6 samples.

Results

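Complement is a set of plasma and cell surface proteins that tag microbes for uptake and call in phagocytes. C1q, mannose-binding lectins and ficolins recognise a surface and start cleavage of C4 and C2, while the alternative pathway, driven by factor B and stabilised by properdin, amplifies the deposition of C3b. Cleavage of C3 and C5 also frees the anaphylatoxins C3a and C5a, which act on receptors of myeloid cells. Macrophages make many of these components themselves, C1q above all, and C3 fragments on Candida albicans are ligands for its phagocytosis. The genes described here are 9 complement components and receptors, C1qa, C1qb, C1qc, C4b, C3, Cfb, Cfp, C3ar1 and C5ar1, chosen by gene name among the 54532 genes of the table, and all 9 were found.

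RNA sequencing was performed on macrophages of C57BL/6J mice, 3 libraries of wild type (WT) cells, with replicate numbers 1, 2 and 3, and 3 libraries of progranulin knock out (PGRN KO) cells, with replicate numbers 4, 5 and 6. Per the labels, the cells came from the peritoneal cavity, and 2000000 of them per well were exposed in vitro to C. albicans, 1 fungal cell per macrophage, for 6 hours. Every library came from challenged cells, so the comparison is of genotypes in the presence of the fungus. The methods of the study name bone marrow-derived macrophages as the sequenced cells and a different ratio of fungus to macrophages, and the labels were followed here. The knockout is of the whole animal. PGRN KO mice were purchased from a repository and WT mice from a university facility, so that genotype and origin of the mice cannot be told apart. No source used here tells whether the libraries came from separate animals, and the p-values measure the spread between these libraries, which may be technical.

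The libraries held 15996786 to 17551619 counted fragments. Grn, the targeted gene, was at 323, 337 and 325 FPKM (fragments per kilobase of gene model, scaled to the size of the library) in WT and at 0.0166, 0 and 0.0167 FPKM in PGRN KO, in accordance with the labels. The 8 macrophage markers were all expressed, whereas of 8 markers of resident peritoneal macrophages 4 stayed under 1 FPKM in every library and Gata6, the factor that defines these cells, was at 3.78 to 5.07 FPKM. PGRN KO replicate 6 stood apart from the other libraries. Its deviation from the mean of each gene had a Spearman correlation of -0.47 with gene length across 8882 genes, against 0.15 to 0.24 in the other 5 libraries, so that short gene models read high in it. Results are therefore also given without this library where it decides them.

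The sequences around the gene starts annotated by RefSeq are shown first, for pairs of members that behaved differently in these libraries and for C3. These starts can differ from those of the gene models measured here. RefSeq promoter windows (GRCm38.p6, 250 bases before to 50 after the start, written in the direction of the gene) were available for 6 of the 9 members. Capitals mark matches to 1 of 6 motifs searched on both strands, GAGGAA (the core of ETS sites such as those of PU.1), GAAANNGAA (a short form of the interferon-stimulated response element), TTCNNNGAA (STAT sites), TGANTCA (AP-1), TTGCNNAA (C/EBP) and TATAAA (the core promoter box bound by TBP). Matches may overlap each other. The windows of C1qb (chr4:136886151-136886450, minus strand) and C1qc (chr4:136892865-136893164, minus strand) are those of neighbouring genes that encode chains of the same protein.
C1qb: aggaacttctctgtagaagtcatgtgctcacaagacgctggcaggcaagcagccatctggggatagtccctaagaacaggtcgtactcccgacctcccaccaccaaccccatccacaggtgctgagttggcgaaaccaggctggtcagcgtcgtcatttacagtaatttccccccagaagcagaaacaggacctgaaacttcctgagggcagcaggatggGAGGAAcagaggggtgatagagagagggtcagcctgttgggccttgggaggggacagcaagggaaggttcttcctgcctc
C1qc: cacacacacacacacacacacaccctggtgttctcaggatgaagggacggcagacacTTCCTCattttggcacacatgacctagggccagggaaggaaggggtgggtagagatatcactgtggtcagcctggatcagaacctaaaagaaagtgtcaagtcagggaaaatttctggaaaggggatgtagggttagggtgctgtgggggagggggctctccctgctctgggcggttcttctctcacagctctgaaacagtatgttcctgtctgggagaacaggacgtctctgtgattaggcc
Each of these windows held 1 GAGGAA, which 28.3% of all 32851 promoter windows held. It began 30 bases before the RefSeq start of C1qb and, on the opposite strand, 193 bases before the RefSeq start of C1qc. The measured gene model of C1qc begins further upstream, at base 136893065, so that part of its window lies inside the model. Neither window held any of the other motifs, and the STAT motif, found in 8.3% of all windows, was in none of the windows shown.

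The windows of the anaphylatoxin receptor genes C3ar1 (chr6:122856108-122856407, minus strand) and C5ar1 (chr7:16259289-16259588, minus strand) and of C3 (chr17:57228087-57228386, minus strand) were as follows.
C3ar1: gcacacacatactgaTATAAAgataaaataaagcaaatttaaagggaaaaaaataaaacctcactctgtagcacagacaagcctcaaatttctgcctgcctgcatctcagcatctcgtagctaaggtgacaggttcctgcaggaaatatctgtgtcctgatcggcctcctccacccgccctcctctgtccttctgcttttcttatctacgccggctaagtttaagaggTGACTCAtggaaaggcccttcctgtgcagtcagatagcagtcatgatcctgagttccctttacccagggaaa
C5ar1: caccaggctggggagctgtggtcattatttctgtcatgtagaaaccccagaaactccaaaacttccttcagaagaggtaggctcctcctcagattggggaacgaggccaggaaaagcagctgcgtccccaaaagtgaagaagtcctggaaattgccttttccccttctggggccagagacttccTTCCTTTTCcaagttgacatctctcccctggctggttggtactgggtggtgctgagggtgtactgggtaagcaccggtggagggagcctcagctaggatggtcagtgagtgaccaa
C3: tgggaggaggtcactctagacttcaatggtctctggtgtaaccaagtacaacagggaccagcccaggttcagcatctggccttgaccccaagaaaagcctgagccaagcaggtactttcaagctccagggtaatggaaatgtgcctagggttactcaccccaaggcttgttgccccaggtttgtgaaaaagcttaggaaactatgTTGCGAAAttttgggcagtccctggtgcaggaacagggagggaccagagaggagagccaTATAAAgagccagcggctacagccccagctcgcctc
The C3ar1 window held the AP-1 motif, present in 7.8% of all windows, 22 bases before the start, and TATAAA, present in 13.6%, far upstream at 235 bases before it. The C5ar1 window held the short interferon-stimulated response element, present in 8.6% of all windows, on the opposite strand 66 bases before the RefSeq start. The measured gene model of C5ar1 begins further upstream, at base 16259540, so that this match and most of the window lie inside the model. The C3 window held the C/EBP motif, present in 10.8% of all windows, 45 bases before the start, and TATAAA at base 15 counted from the annotated start. A match is a description of the letters and does not show that a factor bound there.

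To examine how loss of PGRN changed complement transcripts in C. albicans-challenged macrophages, FPKM were compared between genotypes with limma on log2(FPKM + 1) over all 8882 genes with a mean of at least 1 FPKM. All 9 members passed this filter. After Benjamini-Hochberg adjustment over all 8882 genes, 4 members passed the threshold of 0.05, C4b being higher and C1qb, C3 and C5ar1 lower in PGRN KO. The corresponding shares of all tested genes were 24.2% in either direction, 10.4% higher and 13.8% lower. The groups of libraries did not overlap for 6 of the 9 members, against 48.8% of all tested genes. The median log2 fold change of the members was -0.17 and that of all tested genes -0.03. Rescaling every library to the same sum of FPKM (a TPM scale) moved the split over all genes from 921 higher and 1230 lower to 922 and 608, but the same 4 members were called, in the same directions. In bulk RNA fewer cells of a type and less RNA per cell cannot be told apart.

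**Figure D1:**
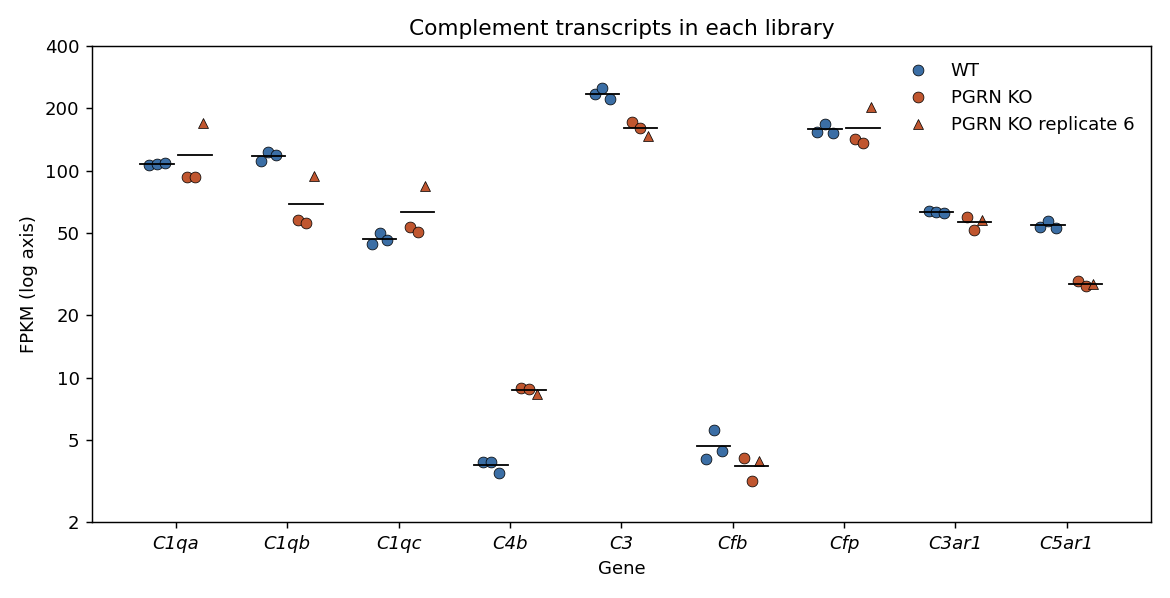
FPKM of the 9 complement genes (log axis) in each WT library (blue) and PGRN KO library (orange), with PGRN KO replicate 6 drawn as a triangle and a bar at each group mean. C5ar1, C3 and C1qb lie lower in all PGRN KO libraries and C4b lies higher, while replicate 6 is the highest PGRN KO library for the C1q genes and Cfp.

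C1q, the molecule that recognises antibody, C-reactive protein and dying cells, is built from A, B and C chains in equal amounts, encoded by genes that lie next to each other on chromosome 4. C1qb was significantly lower in PGRN KO, whereas C1qa and C1qc were not called in either direction. C1qb (ENSMUSG00000036905, GRCm38 chromosome 4, 136880129 to 136886187) was measured at 112, 123 and 119 FPKM in WT and at 57.5, 56.0 and 93.8 FPKM in PGRN KO. Every PGRN KO library lay below every WT library, and replicate 6 lay closest to WT. This gave a log2 fold change of -0.80 ± 0.20 (SE, n = 3 per group, limma adjusted p 0.0287). Without PGRN KO replicate 6 it was -1.04 with a limma adjusted p of 0.000369. The call was lost when any of the other 5 libraries was left out (limma adjusted p from 0.0725 to 0.102) and when low values were not filtered (0.0833), with the direction kept.

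C1qa (ENSMUSG00000036887, chromosome 4, 136895917 to 136898803) was at 107, 107 and 109 FPKM in WT and at 93.6, 93.0 and 169.9 FPKM in PGRN KO. Of the latter, replicates 4 and 5 lay below the WT libraries and replicate 6 above them, so that the groups overlapped. The log2 fold change was 0.08 (95% interval -0.46 to 0.62, limma adjusted p 0.817). Its direction turned without PGRN KO replicate 6, to -0.20 with a limma adjusted p of 0.0138, and after correction of each library for gene length and GC content it was -0.08 with an adjusted p of 0.591. C1qc (ENSMUSG00000036896, chromosome 4, 136889804 to 136893065) was at 44.4, 49.7 and 46.1 FPKM in WT and at 53.6, 50.7 and 84.5 FPKM in PGRN KO. All PGRN KO libraries lay above the WT libraries, by a small margin in replicates 4 and 5. The log2 fold change of 0.38 (95% interval -0.07 to 0.84) was not significant (limma adjusted p 0.183) and was 0.16 without replicate 6 (0.103).

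Since values of a gene depend on the scaling of the library, the chains were next compared with each other within each library. The ratio of C1qb to C1qc was 2.51, 2.48 and 2.58 in the WT libraries and 1.07, 1.10 and 1.11 in the PGRN KO libraries. The ratio in PGRN KO was thus 0.434 of that in WT, a difference of -1.20 on the log2 scale between groups with an SD of 0.031 and 0.026, and replicate 6 did not stand apart in it. The ratio of C1qa to C1qc was 2.40, 2.16 and 2.37 in WT and 1.75, 1.83 and 2.01 in PGRN KO, a difference of -0.31 on the log2 scale, again without overlap. An exact two-sided permutation test gave p = 0.1 for each ratio, the smallest that 3 against 3 libraries allow, and 0.12 after Benjamini-Hochberg adjustment over the 6 ratios compared. Leaving out each library in turn moved the log2 difference of C1qb to C1qc only between -1.22 and -1.19, and that of C1qa to C1qc between -0.37 and -0.26.

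The same values can be written as shares of the summed FPKM of the C1q chains. C1qb made up 43.3% ± 0.739 of the sum in WT but 27.7% ± 0.654 in PGRN KO (SD over 3 libraries each). C1qa made up 39.6% ± 1.17 and 47.0% ± 1.58, and C1qc 17.2% ± 0.520 and 25.3% ± 0.955. The most abundant chain was therefore C1qb in every WT library and C1qa in every PGRN KO library. The summed level was 272 ± 8.95 FPKM in WT against 250.9 ± 84.3 FPKM in PGRN KO, with 205 and 199.8 FPKM in replicates 4 and 5 and 348 FPKM in replicate 6. The gene models of C1qa and C1qb are of similar length (1040 and 1088 bases), with a GC content of 59.5% and 57.4%. C1qb rested on 1981 to 2340 fragments per WT library and 1083 to 1763 per PGRN KO library. No 31-base word of the transcripts of the C1q chains occurred in a transcript of another gene, and no annotated gene overlapped them.

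**Figure D2:**
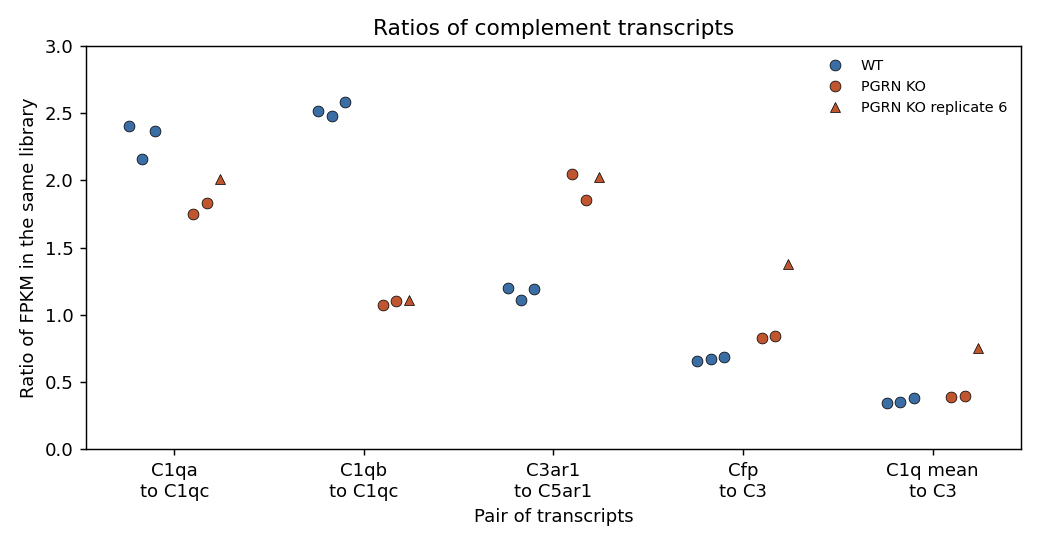
Ratio of FPKM of a pair of complement transcripts in the same library, for WT (blue) and PGRN KO (orange, replicate 6 as a triangle); C1q mean is the geometric mean of the chains. C1qb to C1qc lies between 2.48 and 2.58 in WT and between 1.07 and 1.11 in PGRN KO, while the ratios to C3 are spread by replicate 6.

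C4, which is cleaved after C1q or a lectin has bound and attaches covalently to the surface, was the only member that was significantly higher in PGRN KO. C4b (ENSMUSG00000073418, chromosome 17, 34728380 to 34743882) was at 3.91, 3.89 and 3.47 FPKM in WT and at 8.91, 8.81 and 8.30 FPKM in PGRN KO. The PGRN KO mean was 231% of the WT mean, and the libraries within each group lay close together, replicate 6 included. With a log2 fold change of 1.02 ± 0.09 (SE, limma adjusted p 0.00119) it was called in all 20 alternatives (limma adjusted p from 3.34e-05 to 0.0147). The level was low, with 328 to 373 fragments per WT library and 817 to 950 per PGRN KO library. Of the 31-base words of the C4b transcripts 48.3% also occur in other genes, mainly C4a, a close copy, so that fragments of these stretches may be dropped or moved between the copies. C4a itself was counted with 6 to 12 fragments per WT library and 6 to 19 per PGRN KO library. Fibroblasts also make C4, and the summed level of 10 fibroblast and mesothelial markers was 1.12 to 1.19 FPKM in WT against 2.07 to 3.78 FPKM in PGRN KO. Of these markers 9 stayed under 1 FPKM in every library, and their part in the difference of C4b was not tested.

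C3, the component on which all routes of activation converge, was the most abundant member in WT. C3 (ENSMUSG00000024164, chromosome 17, 57203970 to 57228136) was at 235, 249.6 and 222 FPKM in WT and at 171, 161 and 147 FPKM in PGRN KO. All PGRN KO libraries lay below all WT libraries, and the mean fell to 67.8% of the WT mean. Its log2 fold change was -0.56 ± 0.10 (SE, limma adjusted p 0.0103). It was called in 18 of 20 alternatives. The call was lost without WT replicate 1 (0.0629) and without WT replicate 2 (0.0553), with log2 fold changes of -0.56 and -0.52. After correction for gene length and GC content the log2 fold change was -0.53 (limma adjusted p 0.00385). In this gene, whose model is 5143 bases long, replicate 6 was the lowest library.

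The alternative pathway was represented by factor B, the protease subunit of its C3 convertase, and properdin, which stabilises that convertase. Neither was called. Cfb (ENSMUSG00000090231, chromosome 17, 34856374 to 34862518) was at 4.04, 5.60 and 4.41 FPKM in WT and at 4.11, 3.18 and 3.95 FPKM in PGRN KO, with overlapping groups. Its log2 fold change was -0.26 (95% interval -0.58 to 0.06, limma adjusted p 0.204). Gm20547, a gene model that runs through C2 and Cfb on the same strand, shares exons with it (75.5% of the 31-base words of Cfb occur there) and was listed at 0 in all 6 libraries. Where fragments that fall in both models were discarded, Cfb is understated, and its level relative to the other members is uncertain. Cfp (ENSMUSG00000001128, chromosome X, 20925454 to 20931555), which encodes properdin, was at 154, 168 and 152 FPKM in WT and at 141, 136 and 203 FPKM in PGRN KO. The libraries of replicates 4 and 5 lay below the WT libraries and replicate 6 above them. The log2 fold change was -0.01 (95% interval -0.39 to 0.38, limma adjusted p 0.980), and it was -0.19 without PGRN KO replicate 6 (limma adjusted p 0.0515) and 0.05 on the TPM scale. Since Cfp lies on the X chromosome, sex-linked transcripts were examined, and Eif2s3y, encoded on the Y chromosome, was at 9.39 to 11.6 FPKM in all 6 libraries, while Xist was at most 0.00377 FPKM.

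Set against C3 in the same library, Cfp and the mean of the C1q chains were higher in PGRN KO, by an amount that depended on replicate 6. This mean combines chains that moved differently, and the log2 fold change of C1qb alone (-0.80) was lower than that of C3 (-0.56). The ratio of Cfp to C3 was 0.657, 0.673 and 0.684 in WT and 0.827, 0.842 and 1.38 in PGRN KO, a log2 difference of 0.56 that was 0.31 without replicate 6. The ratio of the C1q mean to C3 was 0.344, 0.348 and 0.379 in WT and 0.387, 0.398 and 0.751 in PGRN KO, a log2 difference of 0.45 that was 0.14 without replicate 6. After correction for gene length and GC content the log2 difference was 0.40 for Cfp and 0.27 for the C1q mean. The groups did not overlap in either ratio (exact permutation p = 0.1, adjusted 0.12). The ratio of Cfb to C3 overlapped between the groups (log2 difference 0.24, exact permutation p = 0.3, adjusted 0.3).

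The anaphylatoxin receptors differed in their response. C5ar1, the receptor through which C5a activates and attracts phagocytes, fell to 52.4% of the WT mean, whereas C3ar1, the receptor of C3a, was not called. C5ar1 (ENSMUSG00000049130, chromosome 7, 16246743 to 16259540) was at 53.3, 56.9 and 52.8 FPKM in WT and at 29.1, 27.8 and 28.4 FPKM in PGRN KO. The groups were far apart compared with the spread within them, with an SD of 2.26 FPKM among the 3 WT and 0.656 FPKM among the 3 PGRN KO libraries. On the log2 scale the difference was -0.91 ± 0.08 (SE, limma adjusted p 0.00140). It was called in all 20 alternatives, with a limma adjusted p from 3.34e-05 to 0.0150 and a log2 fold change from -0.96 to -0.81. C5ar1 is also abundant on neutrophils. Of 9 neutrophil markers 8 stayed under 1 FPKM. Ly6g, by whose protein the study identified neutrophils, and Elane were listed at 0 in every library, and S100a9 reached at most 0.443 FPKM. Only S100a8, which macrophages express as well, passed 1 FPKM. S100a8 was itself lower in PGRN KO, at 48.8, 52.8 and 48.3 FPKM in WT against 21.2, 23.1 and 25.6 FPKM in PGRN KO (limma adjusted p 0.00142), and the part of neutrophils in the difference of C5ar1 was not tested.

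C3ar1 (ENSMUSG00000040552, chromosome 6, 122847138 to 122856161) was at 64.0, 63.0 and 62.7 FPKM in WT and at 59.6, 51.5 and 57.6 FPKM in PGRN KO. All PGRN KO libraries lay below the WT libraries, but the log2 fold change of -0.17 (95% interval -0.38 to 0.04) was not significant (limma adjusted p 0.206), nor was it in any of the 20 alternatives. The interval of C3ar1 and that of C5ar1, -1.10 to -0.72, did not overlap. Within libraries the ratio of C3ar1 to C5ar1 was 1.20, 1.11 and 1.19 in WT and 2.05, 1.85 and 2.03 in PGRN KO. The ratio in PGRN KO was 1.70 times that in WT (log2 difference 0.76, exact permutation p = 0.1, adjusted 0.12), and leaving out each library in turn gave 0.72 to 0.81.

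**Figure D3:**
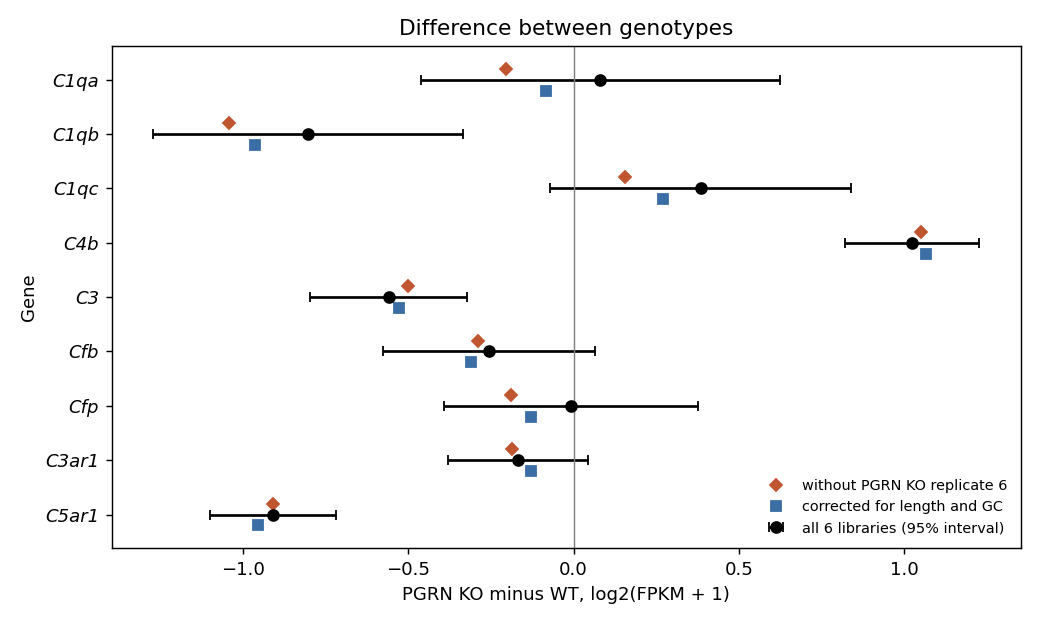
Difference between PGRN KO and WT on the log2(FPKM + 1) scale for each complement gene, with all 6 libraries and the 95% interval of limma (black), without PGRN KO replicate 6 (orange) and after correction for gene length and GC content (blue). C4b, C3 and C5ar1 keep their place in all of them, while C1qa moves from 0.08 to -0.20 without replicate 6.

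The order of the levels, compared per length as FPKM, was C3, Cfp, C1qb, C1qa, C3ar1, C5ar1, C1qc, Cfb and C4b in WT, and no neighbours in this order overlapped between libraries. In PGRN KO the order of the means was Cfp, C3, C1qa, C1qb, C1qc, C3ar1, C5ar1, C4b and Cfb. The first place of Cfp and the place of C1qc before C3ar1 depended on PGRN KO replicate 6. In the mean of replicates 4 and 5, C3 (166 FPKM) stayed above Cfp (139 FPKM), and C3ar1 (55.6 FPKM) above C1qc (52.1 FPKM). Across all PGRN KO libraries the ranges of Cfp, C3, C1qa, C1qb, C1qc and C3ar1 overlapped from each neighbour to the next. Only C5ar1, C4b and Cfb stood clear of the genes before them. These ranges compare different libraries, and within each PGRN KO library the C1q chains kept their order. The ratio of C1qa to C1qb, chosen after values were seen, was 1.63, 1.66 and 1.81, and that of C1qb to C1qc was 1.07, 1.10 and 1.11.

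The rest of the complement system was examined with a list of 52 further gene symbols, of which 51 were in the table and 10 were expressed highly enough to be tested. Of these 10 genes, 3 had a limma p under 0.05 after adjustment over all genes, 1 being higher and 2 lower in PGRN KO, against 24.2% called, 10.4% higher and 13.8% lower over all tested genes. This share of 3 in 10 lies near that background. The median log2 fold change of the 10 was -0.10, against -0.03 over all tested genes. Fcna encodes ficolin A, a lectin that starts the cascade on carbohydrate surfaces. It was at 2.09, 3.15 and 2.94 FPKM in WT and at 6.89, 6.61 and 10.9 FPKM in PGRN KO, all above WT (log2 fold change 1.27 ± 0.20 SE, limma adjusted p 0.00680). It was called in all 20 alternatives. It rested on few fragments, such as 48 in WT replicate 1 and 164 in PGRN KO replicate 4.

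Itgax encodes the alpha subunit of complement receptor CR4, which binds the C3 fragment iC3b. It was at 24.7, 26.2 and 24.7 FPKM in WT and at 20.7, 19.5 and 16.7 FPKM in PGRN KO, all below WT. Its log2 fold change was -0.40 (limma adjusted p 0.0326), and it was called in 11 of 20 alternatives. Its call was lost, among others, on the TPM scale (limma adjusted p 0.161) and without WT replicates 1, 2 and 3 in turn.

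Itgam, the alpha subunit of CR3, the main receptor for iC3b-coated fungi, was at 50.6, 50.5 and 49.9 FPKM in WT and at 41.3, 42.4 and 45.1 FPKM in PGRN KO. Its groups did not overlap, but it was not called (log2 fold change -0.22, limma adjusted p 0.0848) except with sample quality weights and in both fits without PGRN KO replicate 6, where the adjusted p was 0.00270 to 0.00766. Itgb2, the shared beta subunit of CR3 and CR4, was at 656 to 682 FPKM in the WT and 628 to 671 FPKM in the PGRN KO libraries (log2 fold change -0.03, 95% interval -0.25 to 0.18, limma adjusted p 0.806), and its sign turned under 5 alternatives. Colec12 was at 2.14 to 3.01 FPKM in the WT and 1.69 to 1.94 FPKM in the PGRN KO libraries, without overlap and close to the threshold (limma adjusted p 0.0541). Cd93, once described as a receptor of C1q, was at 10.7 to 14.2 and 13.7 to 22.8 FPKM (limma adjusted p 0.116), with a log2 fold change of 0.48. It was called in 4 of 20 alternatives, among them the fit without PGRN KO replicate 6 (0.67, limma adjusted p 0.0107). C1ra, Cr1l and C1qbp had log2 fold changes of 0.26, 0.11 and -0.16 and were not called (limma adjusted p 0.227, 0.419 and 0.288).

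**Figure D4:**
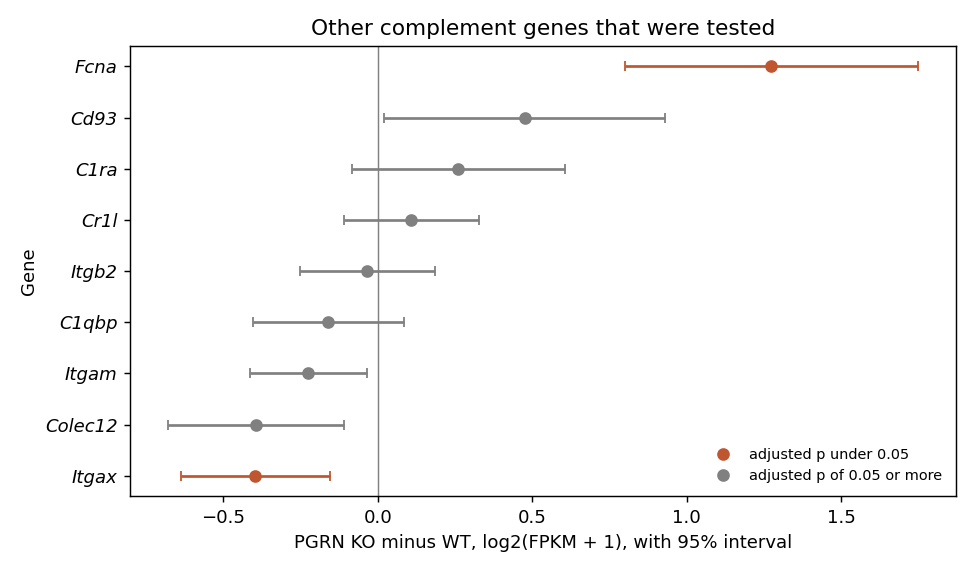
Difference between PGRN KO and WT on the log2(FPKM + 1) scale with its 95% interval for 9 of the 10 further complement genes that were tested, in orange where the limma adjusted p was under 0.05. Fcna stands apart at 1.27, and the other genes shown lie between -0.40 and 0.48.

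Most of the cascade beyond these genes was not detected or barely so. Of the 41 listed genes that were not tested, 14 were at 0 in all libraries and none exceeded 1.03 FPKM in any library. The terminal pathway that forms the membrane attack complex was among them. Hc, which encodes C5, had at most 3 fragments in a library, C6 and C9 had at most 1, and C7, C8a and C8b had 0. C8g, which encodes the gamma chain of C8, had the most of this group, with 1 to 11 fragments per library. Mbl1 and Mbl2, the mannose-binding lectins, and Cfi, which degrades C3b, were also at 0. A count of 0 allows up to 3 fragments per library, which for the 14 genes at 0 corresponds to limits between 0.0235 and 0.184 FPKM (counting error only). C2, the partner of C4 in the classical C3 convertase, was at 0.0716 to 0.262 FPKM. Gm20547 runs through C2 as well as Cfb, so that C2 may also be understated where fragments that fall in both models were discarded.

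Transcripts of other cell types were present at low levels and several were higher in PGRN KO. The summed level of 5 B cell markers was 4.70 to 6.06 FPKM in WT against 18.7 to 24.0 FPKM in PGRN KO. That of 6 mast cell markers was 2.29 to 3.19 and 9.72 to 14.0 FPKM, mostly Cma1 and Tpsb2. Among these 6, Kit was the exception, at 0.218 to 0.423 FPKM in WT and 0.130 to 0.343 FPKM in PGRN KO. For 5 endothelial markers it was 6.19 to 6.62 and 11.6 to 15.2 FPKM, mostly Vwf, and for 5 T cell markers 3.17 to 3.84 and 3.69 to 7.35 FPKM. For 5 dendritic cell markers it was 1.77 to 2.23 and 1.08 to 1.38 FPKM, and for 9 neutrophil markers 48.8 to 53.2 and 21.5 to 26.6 FPKM, nearly all S100a8. The 4 hepatocyte markers summed to at most 0.164 FPKM, while the 8 macrophage markers summed to 11588 to 12530 FPKM in WT against 10410 to 14340 FPKM in PGRN KO. The 8 markers of resident peritoneal macrophages summed to 21.5 to 25.6 and 20.9 to 26.4 FPKM, with Prg4 the highest of them. Of the 4 that were tested, 1 was called. This was Icam2, at 3.26, 3.09 and 2.94 FPKM in WT against 5.43, 4.49 and 5.38 FPKM in PGRN KO (limma adjusted p 0.00914). The part of the cell types named here in the complement values was not tested.

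Finally, the protein-coding genes whose pattern over the 6 libraries was most like that of a called member were identified by Pearson correlation of log2(FPKM + 1), as a description. The libraries share genotype and scaling, so that any gene with a step between genotypes scores high. For C5ar1 these were Ppp1r13l (r = 0.999) and Fos (r = 0.999), an AP-1 subunit, at 67.2, 70.0 and 67.8 FPKM in WT against 37.0, 34.7 and 36.9 FPKM in PGRN KO. For C3 they were Sf1 (r = 0.998) and Prcp (r = 0.998), and for C4b Etfrf1 (r = 0.997) and Creg1 (r = 0.997), the latter at 140.4, 139 and 133 FPKM in WT against 239, 252 and 242 FPKM in PGRN KO. For the mean of the C1q chains, used in place of C1qb alone, they were Rpl23a (r = 0.998), a ribosomal protein gene, and Ldha (r = 0.995). This mean includes C1qa and C1qc, which were not called, and genes like C1qb alone were not sought. Rpl23a and Ldha were, like the C1q mean, highest in PGRN KO replicate 6, and neither was called (limma adjusted p 0.784 and 0.853).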

How the data were processed

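RNA of 3 WT and 3 PGRN KO macrophage cultures was sequenced after 6 hours with C. albicans. The authors deposited FPKM per gene and library. Per the labels (the submitters' processing notes), HISAT2 2.0.5, featureCounts 1.5.0-p3, DESeq2 1.20.0 and the build GRCm38 were used, whereas the methods of the study name HISAT and HTSeq. No source used here states a strand setting. The authors tested counts with DESeq2. The deposited values are FPKM, so limma 3.58.1 (R 4.3.3) was used on log2(FPKM + 1), which understates fold changes of low genes, with a variance trend, no covariates, two-sided tests and Benjamini-Hochberg adjustment over the 8882 genes that averaged 1 FPKM or more.

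Multiplied by gene length, 100.0% of the values above 0 were whole multiples of a common step in their library (tolerance 0.001 of a step), which gave the fragments of each library. Limma voom on these called 2014 genes. The deposited FPKM were already scaled by median ratios. Coordinates in the table equalled GENCODE M21 (GRCm38) for 98.26% of matched genes and for all 9 members. Ratios of members within a library were compared by exact permutation tests over libraries. On simulated fragments (10 draws over 8882 genes, 200 changed by 1 on the log2 scale, dispersion 0.02) limma called 89.8% of changed genes, and 7.4% of its calls were false. The simulation had no library with a gene length trend like that of PGRN KO replicate 6. It also had fewer changed genes than the 2151 called here, so these rates may not hold for the data. The members and lists were chosen with earlier results of these data known. Some genes of the lists are not reported here. Named genes were the members, Grn, tested genes of the complement list, markers, and the 2 genes most like each called member, the C1q chains taken as their mean; the promoter motifs, Gm20547, C4a, Eif2s3y and Xist were added after their values were seen. Reads carry no molecular identifiers here, so intervals on fragments cover counting error only.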

Additional observations from a re-analysis of the deposited data

How the results depend on the processing

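Of the 4 called members, C4b and C5ar1 kept direction and call under all 20 alternatives, the fits without each library included. The number of called members was 2 to 5 with each library left out. It was 2 without WT replicate 1 and without WT replicate 2, where C1qb and C3 were lost, and 5 without PGRN KO replicate 6 and with the length and GC correction without it, where C1qa was gained as lower. No paired analysis was possible because replicate numbers of the genotypes do not coincide (1 to 3 and 4 to 6).

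The 3 called genes of the further complement list became 1 without a filter on low values, on the TPM scale, with library size taken as the sum of fragments and with voom. They became 6 with sample quality weights, 5 with the length and GC correction and 6 with the latter in the absence of PGRN KO replicate 6. Over the fits without each library they numbered 1 to 5. The lowest count was reached without WT replicate 1 and without WT replicate 2, and the highest without PGRN KO replicate 6. Without a filter 22912 genes were adjusted together. The cause of the other changes was not tested.

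Genes that turned sign were not called with all libraries. C1qa was -0.17 with sample quality weights, -0.083 with the length and GC correction and -0.21 with this correction in the absence of PGRN KO replicate 6. It lay between -0.20 and 0.23 when libraries were left out in turn. Cfp was 0.047 with TPM, 0.015 with quantile normalization, 0.093 with the sum of fragments and 0.10 with voom, and lay between -0.19 and 0.098 when libraries were left out in turn. Itgb2 was 0.020, 0.064, 0.065 and 0.067 under these settings in turn, and 0.013 with the length and GC correction in the absence of PGRN KO replicate 6. The 6 ratios between members kept their direction under each alternative tried. Depth was lowest among the members for Cfb, with 170 to 234 fragments per library. Among the list genes Fcna had as few as 48 and Colec12 as few as 97 fragments in a library.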
